A study of Arabidopsis thaliana with 4 samples.

Results

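Open chromatin at microRNA genes was followed in nuclei of Arabidopsis thaliana Col-0 root tips (5 mm) from 2 control libraries and 2 libraries of the stress group, in which the study applied osmotic stress with sorbitol. The assay, single-nucleus ATAC read together with RNA, lets a transposase cut accessible DNA, so the number of cut sites in a region measures how open it was. The peaks of the 4 libraries were merged into 27677 regions, and a region was taken here if it overlapped 1 of the 326 annotated microRNA genes or the 1 kb before its start. This gave 163 regions at 153 genes, of which 58 also held the first base of a protein-coding gene and 105 did not. Regions in the organelle-like insertion of chromosome 2 and over ribosomal RNA genes were left out. The labels give the treatment as WT for the control libraries and as osmotic stress for the others, which their titles call case. No mutant or transgene was used. The study calls the libraries of a group biological replicates, while the labels do not say whether they came from separate cultures.

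MicroRNA genes of plants are transcribed by RNA polymerase II into long precursors, each with a hairpin. The nuclease DICER-LIKE1, helped by HYPONASTIC LEAVES1 and SERRATE, cuts a short duplex out of the hairpin, and one strand is loaded into ARGONAUTE1, where it guides the cleavage of messengers with a matching site. In roots these molecules are known for limiting transcription factors of auxin response, growth and tissue pattern, and for tuning the supply of copper and phosphate. An open region before the hairpin is where a promoter would be looked for, but it does not show that the gene was transcribed.

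The mature sequences below are shown because they name the products of the genes that the results turn on. They were read from the RefSeq genome (TAIR10.1) at the positions of its annotation, with the seed, bases 2 to 8, in capitals. The first set comes from the regions that passed the test between stress and control. MiR5642a is named there because its sequence is that of miR5642b, but its own region did not pass. The products of MIR774b, which shares a called region, are not shown.
miR164c-5p: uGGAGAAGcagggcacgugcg
miR2936: cUUGAGAGagagaacacagacg
miR5642a and miR5642b: uCUCGCGCuuguacggcuuu
miR859: uCUCUCUGuugugaagucaaa
miR774a: uUGGUUACccauauggccauc
The second set holds conserved microRNAs whose genes had a tested region at no protein-coding gene start.
miR159b-3p: uUUGGAUUgaagggagcucuu
miR319a: uUGGACUGaagggagcucccu
miR166e-3p and miR166f: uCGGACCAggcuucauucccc
miR168a-5p and miR168b-5p: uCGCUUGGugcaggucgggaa
miR396a-5p: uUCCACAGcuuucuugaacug
miR396b-5p: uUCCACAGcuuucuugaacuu
miR390a-5p: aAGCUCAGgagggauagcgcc
miR398b-3p: uGUGUUCUcaggucaccccug
miR408-3p: aUGCACUGccucuucccuggc
Across all genes with a region, 209 annotated mature products had 178 different seeds, 59.8% began with U and 160 were 21 bases long. The same seed was carried by products of at least 2 genes in 23 cases. The miR166 seed CGGACCA and the miR156 seed GACAGAA were each found at 4 genes with a region. The miR164c seed was shared with miR835-3p.

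Depth differed between libraries, and control replicate 1 stood apart. Called nuclei numbered 6069 in control replicate 1 and 12068 to 15302 in the others, with 39458635 and 60915558 to 67513581 cut sites in them. The study describes 15000 nuclei as the input of a library, fewer than the 15302 called in stress replicate 1. The called barcodes can therefore not all be taken as single nuclei. Rank correlations of the counts of overlapping peaks were lowest for control replicate 1 against the stress libraries (0.938 and 0.939) and highest within the stress pair (0.991). Barcodes of called nuclei shared by a pair of libraries were 2.04% to 2.35% of the smaller library. Of 265 root cell type marker genes of the study, 127 had a tested region at their start, but so had both of its photosynthetic markers, so openness alone does not check the tissue label.

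Within the windows used, open regions were found at a smaller share of microRNA genes than of protein-coding genes. Of the 326 microRNA genes 46.9% had one, and of 27444 protein-coding genes 73.5% had one in the 1 kb upstream and the first 144 bases, the median length of a microRNA gene. The annotated microRNA genes are short and need not begin where the long precursors do, so the windows may not be placed alike. Whether this lowered the share was not tested. Among the 96 genes of conserved families 42.7% had a region, and among the 230 other genes 48.7%. Families known for root growth and auxin response had one at 16 of 29 genes. Families known for nutrient supply had one at 7 of 23.

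Within the conserved families genes with a region were counted family by family, beside 42.7% over all 96 genes. Many of these families are small, and whether the counts differ from an even spread was not tested. All 3 genes of miR159, which limits MYB factors of abscisic acid and gibberellin response, had a region at no protein-coding gene start, as had both genes of miR168, miR390 and miR396. All 3 genes of miR398, which limits copper/zinc superoxide dismutases, and both of miR162 had a region too, but at only 1 gene of each family did it hold no protein-coding gene start. MiR162 and miR168 act on the pathway itself, through DICER-LIKE1 and ARGONAUTE1. By contrast, no region was called at any of the 4 miR157 genes, the 6 miR395 genes, which are known to respond to sulphate supply, the 2 genes each of miR165, miR394 and miR397, or the only miR827 gene. MiR399, which limits the ubiquitin conjugase PHO2 under phosphate shortage, had a region at 1 of 6 genes, and miR169, which limits NF-YA factors, at 4 of 14.

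The window that chose the regions reached 1 kb before each gene and not beyond its end, so a position upstream of the hairpin is largely set by the rule and is given as a description. In the 105 regions at no protein-coding gene start, the median centre was 425.5 bases upstream of the annotated start, and the quartiles were 844.5 and 158.5 bases upstream. The hairpin gene itself was touched by 53 of them and 52 lay wholly upstream. A microRNA gene had the nearest annotated start of any gene for 77 of the 105, and a gene of another kind for 28. The median width was 876 bases, against 884 over all regions.

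**Figure D1:**
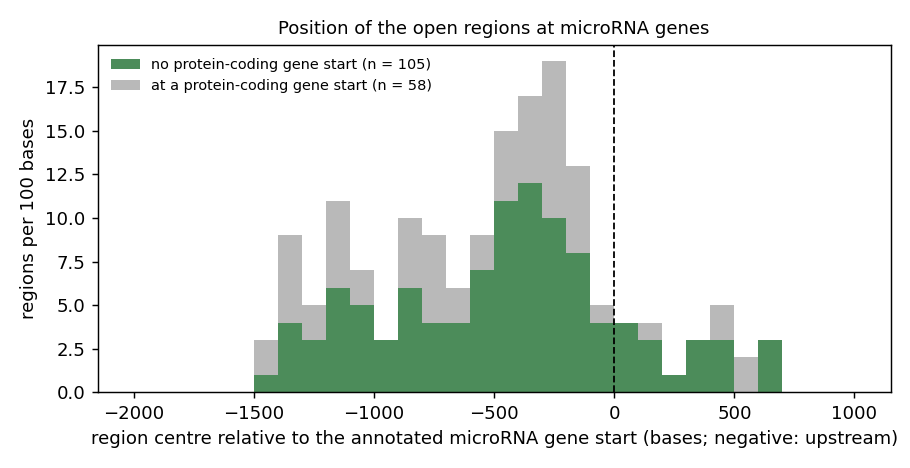
Number of open regions at microRNA genes per 100 bases (vertical axis) by the position of the region's centre relative to the annotated start of the nearest microRNA gene (horizontal axis, bases, negative upstream), stacked for regions without (green) and with (grey) a protein-coding gene start. Centres lay upstream for 88 of 105 green and 53 of 58 grey regions, which the window of the gene and the 1 kb before it largely sets.

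The hairpins sat in different surroundings. Of the 326 microRNA genes 237 lay between protein-coding genes, 53 overlapped an exon of one and 36 lay in an intron. A region was found at 45.1%, 54.7% and 47.2% of them in that order. MIR408, for a microRNA that limits copper proteins such as plantacyanin, overlapped an exon of AT2G47020 on the opposite strand, and MIR398b an exon of AT5G14550, also on the opposite strand.

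Short motifs were counted in the central 300 bases of the regions. TATAAA, searched on both strands like the others, was in 44.2% of the 163 regions and in 41.9% of all regions. CACGTG was in 14.1% against 11.6%, ACGTGG in 11% against 14%, ACGTGT in 14.1% against 16.2% and TTGACC in 17.2% against 16.5%. The letters GTAC, the core bound by the copper regulator SPL7, were in 44.8% against 43.0%, and GNATATNC, the site of the phosphate regulator PHR1, in 6.75% against 6.08%. GCCGAC, the core of the drought-responsive element, was in 15 of 163 regions (9.20%) against 4.66%, with 9 of the 15 at protein-coding gene starts. ACGTGG and ACGTGT can overlap CACGTG, and none of these shares was tested.

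Peak calls differed by library. A peak was called at 120 of the 163 regions in control replicate 1 (73.6%, against 71.7% of all regions) and at 146 in control replicate 2 (89.6%, against 87.7%). In stress replicates 1 and 2 it was called at 143 (87.7%, against 88.4%) and 149 (91.4%, against 90.2%). All 4 libraries had a peak at 107 of the regions (65.6%, against 66.3% of all regions), and only these were tested. A peak missing in control replicate 1 alone was found at 20 regions (12.3%, against 12.7% of all regions). Among them were the regions of MIR393a, for the microRNA that limits the auxin receptors TIR1 and AFB2, MIR160a and MIR167d, for microRNAs of auxin response factors, MIR172b, which acts on AP2-like factors, MIR170, which acts on GRAS factors, and MIR159c.

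Another 10 regions of conserved genes, all at no protein-coding gene start, had no peak in 1 or more libraries and were not tested. Peaks were called in 3 libraries at MIR159a, MIR172c and MIR169n. The region of MIR159a lay at 1:27713647-27714161 and lacked a peak in control replicate 2, as did that of MIR172c, while MIR169n lacked it in stress replicate 1. Another region of MIR159a, at a protein-coding gene start, had a peak in every library. MIR171b and MIR403, the latter for a microRNA that limits ARGONAUTE2, had peaks in control replicate 2 and stress replicate 1, and MIR166b and MIR160c in control replicate 2 and stress replicate 2. Regions of MIR167a, MIR156e and MIR390b were called in stress replicate 1 alone. None of these 10 had a peak in both libraries of 1 group alone.

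Peaks in both stress libraries and in no control library were found at 5 regions (3.07%, against 4.06% of all regions). They lay at MIR5024, in an intron of the amino acid transporter gene AAP5, at MIR5018, at MIR778, at MIR3434 and, over the start of AT2G33255, at MIR8170. In the reverse pattern 3 regions had peaks in both control libraries alone (1.84%, against 0.827%). These were at MIR8172, MIR5017 and MIR10515. The genes MIR5024, MIR778 and MIR8172 each also had another region, with a peak in every library. A missing peak is not a count of 0, and the values in the libraries without a peak are not known.

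Stress and control were compared at the 107 regions with a peak in every library, in a fit over 18340 such regions. Values are cut sites per 1000000 counted in a library (CPM), scaled between libraries by TMM. At adjusted p 0.05, 4 of the 107 regions were called, 2 higher and 2 lower under stress, beside 210 of all tested regions (1.15% of them, 0.927% rises and 0.218% falls). The 4 were the regions of MIR164c and MIR2936, which rose, and of MIR5642b and of MIR859 with MIR774a and MIR774b, which fell. The largest change among the 107 was a fall by 0.70 on the log2 scale. The median log2 change was -0.033 over the 107 and -0.0027 over all tested regions, and 42 of the 107 were above 0, against 49.2% of all. Since counts were summed over nuclei, a change in the makeup of the nuclei and a change within nuclei cannot be told apart from these sums. Leaving out stress replicate 1 or 2 left 1 or 0 of the 107 called, beside 0.224% and 0.196% of all regions in those fits, and leaving out control replicate 1 or 2 gave 28 or 47, beside 19.0% and 43.3%. DESeq2 called 21 of the 107, beside 12.4% of all regions. A correction for peak width gave 4 (3 rises and 1 fall), beside 2.10%, of which 3 were among the 4 above, without the region of MIR859, and the same makeup of clusters gave 1, beside 0.365%.

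**Figure D2:**
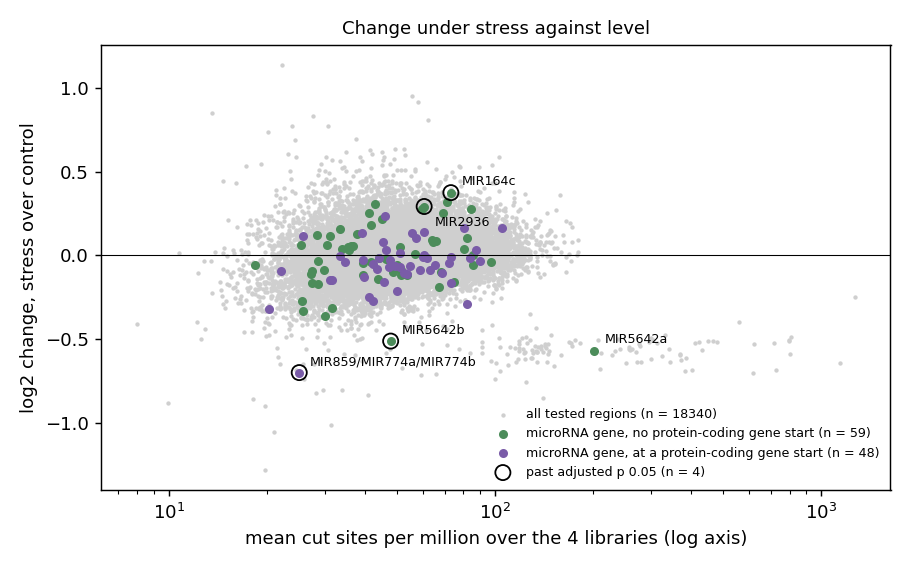
Log2 change of stress over control (vertical axis) against the mean CPM over the 4 libraries (horizontal axis, log scale) for all 18340 tested regions (light grey) and for the regions at microRNA genes without (green, n = 59) and with (purple, n = 48) a protein-coding gene start. Circles mark the 4 regions past adjusted p 0.05, between -0.70 and 0.37.

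MIR164c makes a microRNA that limits NAC factors, among them CUC1, CUC2 and NAC1, which are known for organ boundaries and lateral roots. Its region (5:9851817-9852665) ended 9 bases before the hairpin, and no other gene had a nearer start. CPM was 62.6 and 64.8 in controls and 82.4 and 82.9 under stress. Both stress libraries were above both controls, by 0.37 on the log2 scale (SE 0.049, adjusted p 0.0389). Peak widths here were 792 and 773 bases in controls and 838 and 828 bases under stress. Corrected for them, the log2 change was 0.28 (adjusted p 0.0389). With each library weighted to the same makeup of the 9 clusters described below it was 0.31 (adjusted p 0.05003), just above the threshold. The central 300 bases (5:9852091-9852390, TAIR10, plus strand, the strand of the gene) are given with the motif letters found in capitals, TATAAA once and GTAC once.
MIR164c region: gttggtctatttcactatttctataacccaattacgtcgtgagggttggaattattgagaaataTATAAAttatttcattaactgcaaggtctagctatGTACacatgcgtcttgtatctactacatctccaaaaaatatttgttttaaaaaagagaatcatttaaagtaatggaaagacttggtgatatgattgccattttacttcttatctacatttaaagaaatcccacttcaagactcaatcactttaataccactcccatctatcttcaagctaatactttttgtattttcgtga
The other members of the family, MIR164a and MIR164b, had no region.

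MIR2936 overlaps an exon of SAG21, a late embryogenesis abundant gene known from senescence and stress, on the same strand. The region (4:1047462-1048296) lay 357 bases before the first base of SAG21, which was the nearest start of any gene, and 896 bases from centre to MIR2936. CPM was 53.5 and 55.5 in controls and 65.9 and 67.6 under stress, again without overlap. The log2 change was 0.29 (SE 0.048, adjusted p 0.0473), and it was 0.25 with the same makeup of clusters (adjusted p 0.0629). Which of the 2 genes the region serves was not tested. Its central 300 bases (4:1047729-1048028, minus strand, the strand of both genes) are shown with GTAC in capitals, and with the reverse complements of TATAAA and of ACGTGT.
MIR2936 region: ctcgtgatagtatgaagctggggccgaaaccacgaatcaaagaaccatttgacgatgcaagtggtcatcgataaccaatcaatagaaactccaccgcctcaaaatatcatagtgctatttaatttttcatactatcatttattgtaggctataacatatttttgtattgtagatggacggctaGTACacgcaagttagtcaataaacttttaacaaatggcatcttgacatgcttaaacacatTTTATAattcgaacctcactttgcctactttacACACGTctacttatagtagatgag

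MIR859 and MIR774a lie beside each other on chromosome 1 and share a region with the start of AT1G60070, a gene for a subunit of the AP-1 adaptor complex of vesicles. Its CPM (1:22149096-22150038) was 31.7 and 30.4 in controls and 18.9 and 19.3 under stress. This was the largest fall of the 107, by 0.70 on the log2 scale (SE 0.091, adjusted p 0.0387). The peaks themselves differed, with 933 and 935 bases in controls and 484 and 522 under stress. The control peaks ended at 22150038 and 22150030, within or beyond MIR774a (22149936-22150033), and the stress peaks at 22149929 and 22149923, before it. Corrected for peak width, the log2 change was 0.20, of the opposite sign (adjusted p 0.195). MIR774b had its part in the region through its upstream 1 kb only.

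MIR5642a and MIR5642b form a pair of near-identical loci beside ribosomal RNA genes, and are overlapped by exons of the protein-coding genes AT3G41762 and AT2G01008. The region of MIR5642b (2:1525-2328) matched chromosome 3 over all of its 804 bases with 99.2% identity, at 3:14195492-14196295, which overlaps the region of MIR5642a. Reads of the 2 loci may therefore be split between them or lost, and both values are uncertain. CPM at MIR5642b was 56.0 and 56.5 in controls and 42.1 and 36.8 under stress, lower by 0.51 on the log2 scale (log2 change -0.51, SE 0.071, adjusted p 0.0412). At MIR5642a (3:14195536-14196452) it was 257.7 and 223.6 against 164.7 and 160.2, with a log2 change of -0.57 that did not pass the test (SE 0.14, adjusted p 0.0859). MIR5642a also had the highest level per length of the 59 tested regions at no protein-coding gene start, 219.8 CPM per kb. The 2 regions lay 1378 and 1225 bases from a ribosomal RNA gene, and no other of the 163 lay within 10 kb of one. They were also the only ones of the 107 for which a second genomic copy was found, counting matches of 90% identity or more along 50% of the region or more. The central 300 bases of the MIR5642b region (2:1777-2076, plus strand) held none of the motifs.
MIR5642b region: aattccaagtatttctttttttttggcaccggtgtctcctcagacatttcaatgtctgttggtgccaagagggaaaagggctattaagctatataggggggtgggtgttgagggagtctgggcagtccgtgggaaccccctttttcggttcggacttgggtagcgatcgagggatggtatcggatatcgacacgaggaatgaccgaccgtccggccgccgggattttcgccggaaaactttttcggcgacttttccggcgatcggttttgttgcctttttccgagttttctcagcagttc

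**Figure D3:**
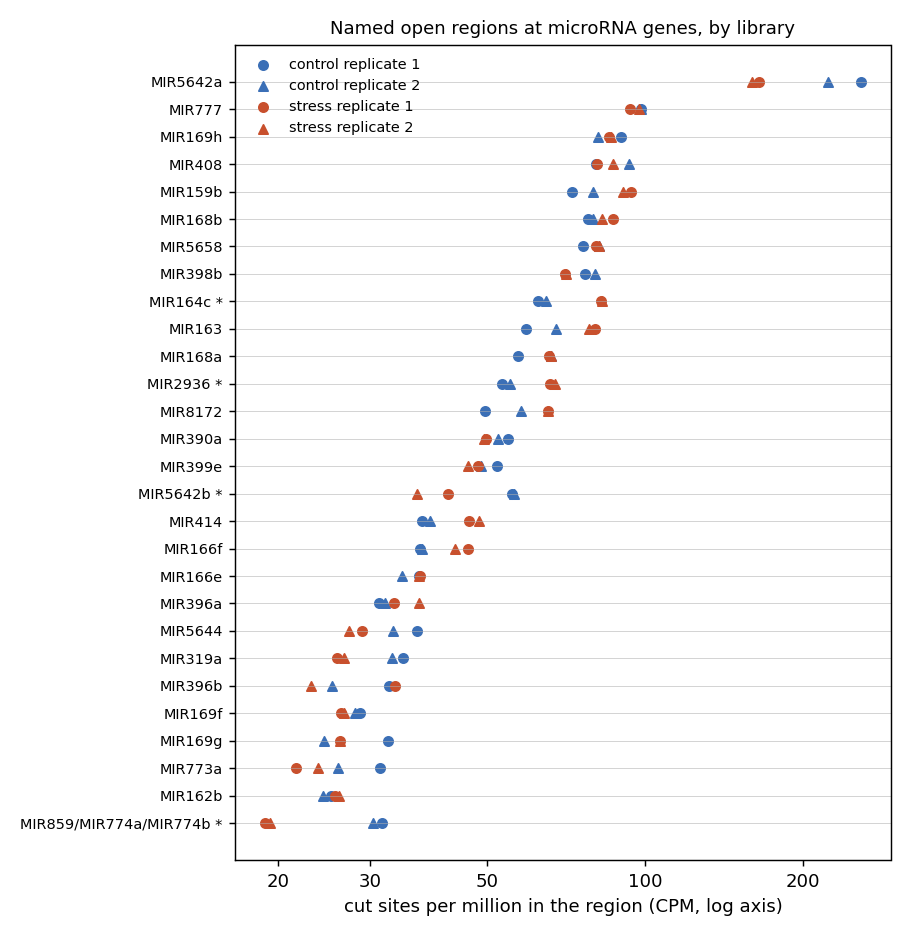
CPM (horizontal axis, log scale) in each of the 4 libraries for the 28 named regions (vertical axis, ordered by mean), with controls in blue, stress in red, replicate 1 as circles and replicate 2 as triangles. Asterisks mark adjusted p below 0.05, and MIR5642a, at 160.2 to 257.7 CPM, lies to the right of all others.

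Of the 17 tested regions at conserved genes and at no protein-coding gene start, only that of MIR164c passed the test. That is 5.88%, beside 1.94% of all 6804 tested regions at no protein-coding gene start and 1.15% of all tested regions. An unadjusted p below 0.05 was found at 5 of the 17, beside 2062 of the 6804 and 23.5% of all tested regions. Groups without overlap were found at 11 (64.7%, against 62.3% of the 6804 and 58.5% of all tested regions). The conserved regions are given in the order of the functions of their microRNAs.

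Among microRNAs of pattern and growth, MIR166f, MIR166e and both MIR396 genes had a tested region. MiR166 limits HD-ZIP III factors and miR396 limits growth-regulating factors. The region of MIR166f had 37.3 and 37.7 CPM in controls and 46.0 and 43.4 under stress, a log2 difference of 0.25 that did not pass (adjusted p 0.0831). MIR166e had 37.2 and 34.5 against 37.3 and 37.2 (log2 difference 0.055), with overlapping groups. MIR396a had 31.2 and 32.1 against 33.3 and 37.2 (0.15, adjusted p 0.281), and its log2 difference was 0.23 without stress replicate 1 and 0.074 without stress replicate 2.
At MIR396b the values were 32.6 and 25.4 in controls and 33.5 and 23.1 under stress, so the spread within each group was larger than any difference between them. Its peak width varied in the same way, 1000 and 717 bases in controls and 897 and 654 under stress. MIR319a, whose product limits TCP factors of leaf growth, had 34.6 and 33.0 CPM against 25.9 and 26.7. Its log2 difference of -0.36 was the largest below 0 among conserved genes but did not pass (SE 0.078, adjusted p 0.0730).

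MIR159b and MIR390a belong to hormone response. MIR159b had 72.8 and 79.7 CPM in controls and 94.0 and 90.9 under stress, a log2 difference of 0.28 (adjusted p 0.0772). Its region centre lay 1050 bases upstream, nearest to the start of the long noncoding RNA AT1G05377. MIR390a, whose product starts the formation of small RNAs against auxin response factors, had 54.8 and 52.5 against 49.7 and 49.4 (-0.11, adjusted p 0.221). Neither passed, though the groups of both stood apart.

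At genes of microRNAs that act on their own pathway, the tested regions at no protein-coding gene start stayed within 0.11 on the log2 scale. The tested regions of MIR162a and a second one of MIR162b, at protein-coding gene starts, are not given here. MIR168a had 57.3 and 66.3 CPM in controls and 65.8 and 66.3 under stress (0.094), and MIR168b 78.0 and 79.8 against 87.1 and 82.7 (0.11). MIR162b had 25.3 and 24.4 against 25.7 and 26.1 (0.062). None of the 3 passed the test, with adjusted p from 0.281 to 0.689.

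Genes of copper, phosphate and nitrogen supply also did not pass. MIR408, among the 5 highest regions by length with 102.6 CPM per kb, had 80.8 and 93.3 CPM in controls and 81.0 and 86.8 under stress. MIR398b had 76.8 and 80.4 against 70.5 and 70.6 (log2 difference -0.16, adjusted p 0.140), with groups that did not overlap. MIR399e had 52.4 and 48.7 against 48.1 and 46.1, but its region lay 1336 bases upstream and nearer to MIR399d.
Of the miR169 genes, MIR169f had 28.6 and 28.0 CPM against 26.4 and 26.7, MIR169g 32.4 and 24.5 against 26.2 and 26.3, and MIR169h 90.1 and 81.4 against 85.6 and 86.4. Their log2 differences were -0.093, -0.11 and 0.0045. None of these passed the test.

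Among families of no broad conservation, the largest rises after MIR164c were at MIR163, MIR414, MIR2936 and MIR8172. MiR163, a longer microRNA of Arabidopsis that acts on methyltransferases of secondary metabolism, had a region with 59.3 and 67.9 CPM in controls and 80.5 and 78.2 under stress (log2 difference 0.32, adjusted p 0.0749). MIR414 had 37.6 and 39.0 against 46.4 and 48.4 (0.31, adjusted p 0.0556). This value passed with the correction for peak width (0.28, adjusted p 0.0409) and in nuclei over 2000 cut sites (0.34, adjusted p 0.0457), and was 0.16 with the same makeup of clusters (adjusted p 0.184). The second region of MIR8172, centred 1025 bases upstream, had 49.6 and 58.1 against 65.4 and 65.5 (0.28, adjusted p 0.101). Its log2 difference was 0.17 without control replicate 1. Of these only MIR2936 passed in the fit over all 4 libraries without correction.
On the side of the falls, after the MIR5642 pair and MIR319a, came the region over MIR773a with 31.3 and 26.1 CPM against 21.7 and 23.9 (-0.33, adjusted p 0.161; -0.20 without control replicate 1 and -0.19 with the same makeup of clusters) and that of MIR5644 with 36.8 and 33.1 against 29.0 and 27.4 (-0.31, adjusted p 0.103). By level per length, MIR5658 (125.9 CPM per kb), MIR777 (102.8) and MIR159b (99.9) completed the 5 highest with MIR5642a and MIR408. Neither MIR5658 nor MIR777 differed between the groups by more than 0.041 on the log2 scale.

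The lists of families gave few calls. Over all tested regions 1.15% were called, 23.5% had an unadjusted p below 0.05, 12.4% were called by DESeq2 and 49.2% had a log2 value above 0, with a median of -0.0027. In families described as responding to drought, salt or abscisic acid 0 of 22 tested regions were called (7 at unadjusted p below 0.05, 6 by DESeq2), with a median log2 change of -0.050. In families of nutrient supply 0 of 8 were called (1 at unadjusted p below 0.05, 1 by DESeq2), and all 8 log2 values were below 0, from -0.16 to -0.016. Families of root growth and auxin response had 1 of 6 called, MIR164c. Of the 48 tested regions at a protein-coding gene start 1 was called (2.08%), beside 0.676% of all tested regions at such starts. Their median log2 change was -0.048, with 13 values above 0. Of the 59 others 3 were called (5.08%), beside 1.94% of all tested regions at no protein-coding gene start. The median of these 59 was -0.013, with 29 values above 0.

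Genes that make, carry or answer to microRNAs were read in the same fit, at regions from 1 kb upstream to 200 bases downstream of their starts. Of 26 genes of microRNA formation and action 19 had a tested region, 24 regions in all. None was called by edgeR, 4 had an unadjusted p below 0.05 and 0 were called by DESeq2, beside the 1.15%, 23.5% and 12.4% of all tested regions, and the median log2 change was 0.0039. AGO1, the main effector, had 71.0 and 78.6 CPM in controls and 84.8 and 82.5 under stress (log2 difference 0.16, adjusted p 0.187). Next came HESO1, which adds uridines to unprotected microRNAs (0.13), and 1 of 2 regions of DCL4, a dicer of other small RNAs (0.10). At the other end were 1 of 2 regions of AGO2, an effector known from antiviral defence (-0.22, against -0.014 at the second, where the groups overlapped), the other DCL4 region (-0.18) and its partner DRB4 (-0.16). All of these missed the threshold, with adjusted p of at least 0.162.

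Among 82 genes that known microRNAs cut, 47 had a tested region, 55 in all. The only call (1.82% of the 55, beside 1.15% of all) was 1 of 2 regions of NF-YA1, a subunit of a CCAAT-binding factor and a target of miR169, with 45.1 and 45.8 CPM in controls and 54.9 and 56.4 under stress (log2 change 0.29, SE 0.049, adjusted p 0.0489). The other region of NF-YA1 did not pass (0.14, adjusted p 0.307). NF-YA2, of the same family, had 70.2 and 73.2 against 88.1 and 84.2 (0.27, adjusted p 0.0643). The HD-ZIP III gene ATHB8, a target of miR166, had 48.7 and 44.7 against 56.3 and 55.6 (0.26, adjusted p 0.0736). The lowest log2 values were those of the same region of AGO2, a target of miR403 (-0.22), and of the miR395 targets SULTR2;1, a sulphate transporter (-0.16), and APS1, an ATP sulphurylase (-0.16). Of the 55 regions 37 had a log2 value above 0 (49.2% of all tested regions had), with a median of 0.052 against -0.0027 over all. An unadjusted p below 0.05 was found at 12 of the 55, beside 23.5% of all tested regions.

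Nuclei were grouped into 9 clusters from regions away from microRNA genes, and each region was read in each cluster. The clusters are named by number, since no cluster stood out by enough markers to carry a cell type name, and clusters 1 and 9 held nuclei of higher depth (medians of 6613 and 7005 cut sites, against 2918 to 3908 in the others). The median ratio of the highest to the lowest cluster was 1.70 over the 107 regions and 1.69 over all tested regions. A ratio over 2 was found for 21 of the 59 regions at no protein-coding gene start (35.6%, against 37.0% of all such regions). In 102 of the 107 every library was higher in the highest cluster than any library in the lowest, but the 2 clusters were chosen by these values, so this is a description.

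MIR166f was most open in cluster 8. There it had 62.5, 81.2, 85.3 and 72.0 CPM in control replicates 1 and 2 and stress replicates 1 and 2, and in cluster 3, the lowest, 27.2, 26.3, 25.5 and 30.4. Cluster 8 was also where the endodermis marker list of the study was highest, its median region being 1.23 times the mean over clusters, from 11 regions at 9 of 33 genes. MIR166e, with the same mature sequence, was highest in cluster 8 too, at 49.8 CPM over the pooled libraries, and lowest in cluster 1, at 26.4.

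Both MIR396 genes were lowest in cluster 1. MIR396b had 9.86 CPM there and 45.6 in cluster 8, a ratio of 4.62, and MIR396a 16.4 against 44.2 in cluster 2, a ratio of 2.70. In each library the cluster 1 value of MIR396b, 6.33 to 13.6, was below the lowest cluster 8 value, 33.4. MIR164c and MIR163 had the reverse pattern, highest in cluster 1 at 108 and 105 CPM and lowest in cluster 3 at 43.2 and 35.7. MIR781b was also highest in cluster 1 (82.6 CPM) and lowest in cluster 8 (21.8), and MIR414 was highest in cluster 9 (69.1) and lowest in cluster 3 (17.6). In cluster 1 the median region of the lateral root cap list was 1.29 times the mean over clusters, from 4 regions only. That of the cortex list was 1.18 times there, but higher in cluster 9, at 1.25 times.

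MIR5642b had a ratio of 4.96 between its highest and lowest cluster, from 15.4 CPM in cluster 9 to 76.4 in cluster 3, and MIR5642a ran from 80.3 in cluster 9 to 286 in cluster 7. The 3 lowest clusters of both were 1, 8 and 9, which had the highest median depth. The part of depth in this was not tested.

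**Figure D4:**
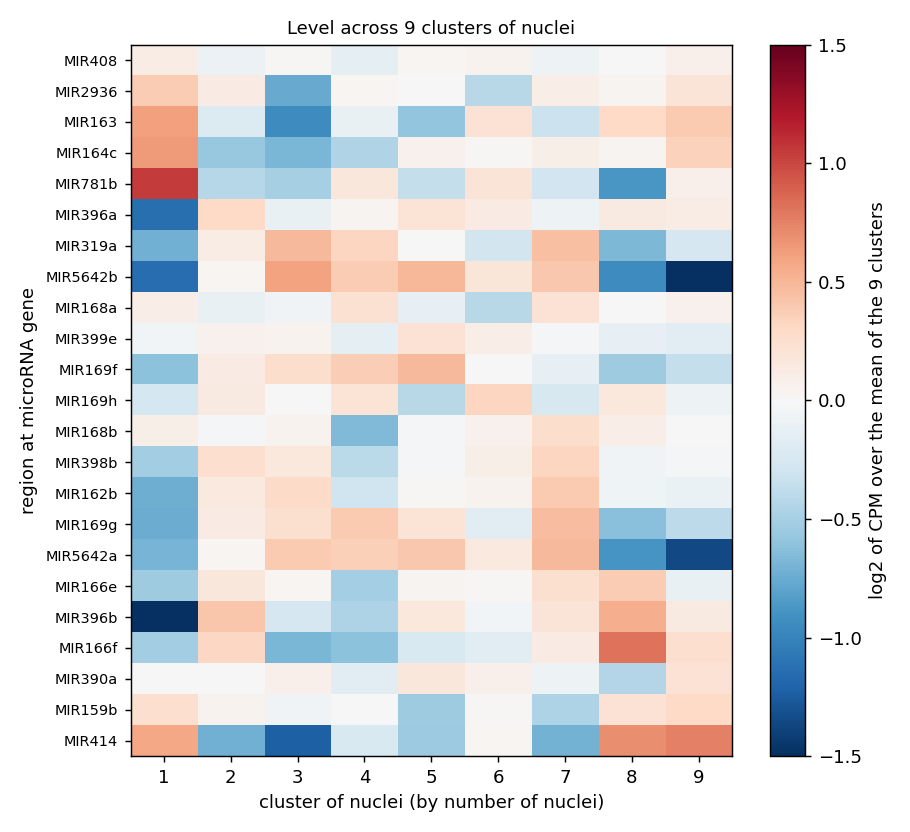
Level of 23 regions at no protein-coding gene start (rows) in 9 clusters of nuclei (columns, numbered from the largest), as the log2 of the CPM over the mean of the clusters (blue below, red above). MIR166f is reddest in cluster 8, and MIR396a and MIR396b are bluest in cluster 1.

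Within the clusters the changes under stress were read again for the 4 called regions. The clusters split the same sums that chose these regions, so their direction is a description and no separate support. Over all tested regions 10.5% had 1 direction in 9 of 9 clusters, and 1.71% had this with no overlap in at least 8. MIR164c was higher under stress in 9 of 9 clusters, with groups that did not overlap in any, and its log2 difference ran from 0.11 in cluster 9 to 0.49 in cluster 2. MIR2936 was higher in 9 of 9 (0.13 to 0.40) and without overlap in 8. The region of MIR859 was lower in 9 of 9 (-0.92 to -0.13) and without overlap in 8, with the peak widths as above. MIR5642b was lower in 8 of 9 clusters but without overlap in only 3, and its log2 difference ran from -0.86 in cluster 7 to 0.026 in cluster 9. With the same makeup of clusters in every library its log2 change was -0.32 (adjusted p 0.114). Shares of nuclei differed between the libraries, for example 4.83% and 6.99% of the control and 8.98% and 8.82% of the stress libraries in cluster 8. They were 9.67% and 12.2% against 15.3% and 15.6% in cluster 1, where MIR164c was highest. In cluster 9, where MIR5642b was lowest, they were 4.37% and 6.26% against 8.99% and 8.8%. Clusters 4 to 7 held larger shares in both controls.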

How the data were processed

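Per the file headers and labels, Cell Ranger ARC 2.0.2 was run by the authors on TAIR10. They called peaks per library and deposited raw counts (cut sites, not scaled) of each library in its own peaks. The gene rows used here carry no names, so no RNA value is given. Called nuclei were barcodes within the study's limits on ATAC and RNA counts. Its other limits need fragments and were not applied, and doublets were not called. More nuclei were kept than in the study, and the reason was not tested. Each library alone held more called nuclei than the study kept for its whole group. The sums and cluster values therefore include barcodes that the study left out. Overlapping peaks were merged and counts summed per library and region.

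The 18340 regions with peaks in every library were tested with edgeR 4.0.16 (TMM, low-count filter, quasi-likelihood, two-sided, Benjamini-Hochberg), with DESeq2 1.42.0 as an alternative. With 2 libraries against 2 an exact two-sided test of a single value cannot go below p = 0.333. On simulated counts for this comparison 93.3% of changes of 0.5 and 100% of changes of 1 on the log2 scale were recovered. The simulation gave all regions and libraries 1 common spread and held no smaller changes. It therefore does not give the share recovered in the data, where most changes named were below 0.5. Positions are TAIR10, 1-based. Genes and sequences are RefSeq TAIR10.1, with the same nuclear coordinates: 56.1% to 59.7% of peaks held the first base of a protein-coding gene, but 20.8% or fewer when moved by 10000 bases. Of genes named MIR, 3 that code for proteins were left out. Clusters came from k-means (scikit-learn 1.9.0) on LSI components 2 to 20, centred per library, and copies from blastn 2.17.0. The members and gene lists were chosen with earlier results of these data known. Named were regions past the threshold, conserved genes, peaks in 1 group alone, and at no protein-coding gene start the 5 largest rises and falls without overlap and the 5 highest per length. Of the gene lists, those called and the 3 largest changes each way were named. The cluster values of MIR781b, MIR5642a and MIR414 were singled out after they were seen.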

Additional observations from a re-analysis of the deposited data

How the results depend on the processing

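The count of called regions depended on the settings more than their direction did. With library totals in place of TMM it was 59 over all regions, 1 at microRNA genes and 0 at pathway and target genes, against 210, 4 and 1. DESeq2 gave 2270, 21 and 4. Without the 5% of nuclei with the most cut sites 106 regions and 0 pathway and target genes were called, with peak width as an offset 385 regions, with the same makeup of clusters 67, 1 and 0, and over all merged regions with 0 where a library had no peak 0, 0 and 0. Leaving out 1 library gave 36 to 7947 regions, 0 to 47 at microRNA genes and 0 to 27 at pathway and target genes, higher without a control library and lower without a stress library. The median log2 change over the regions at microRNA genes stayed between -0.044 and -0.0058, within 1 SD between libraries (0.030).

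Replicate numbers are shared by the groups, and the deviations of same-numbered libraries had a correlation of -0.0095. With 2 libraries per group this cannot settle whether same-numbered libraries share more than a number. With the replicate number as a block 865 regions were called, 9 at microRNA genes, among them the 4 called without it, and 3 at pathway and target genes.

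Of 392 values of 28 named regions under other settings, 16 changed sign. With peak width as an offset MIR859 with MIR774a and MIR774b was at 0.20 and MIR396b at 0.095. MIR396b was also at 0.0075 with all barcodes. MIR169h was at -0.0048 with all barcodes, -0.00071 with nuclei over 2000 cut sites and -0.0099 without the 5% of nuclei with the most. MIR5658 was at -0.023 with the same makeup of clusters. The other 9 came from leaving out 1 library, where values ran from -0.15 to 0.055 at MIR408, -0.0085 to 0.093 at MIR5658, -0.067 to 0.078 at MIR169h, -0.0058 to 0.21 at MIR168a, -0.30 to 0.10 at MIR169g, -0.33 to 0.21 at MIR396b and -0.00032 to 0.11 at MIR166e. The region set itself was 80 with the gene alone and 50 with peaks of at least 50 CPM, against 163, and 126, 235 and 114 with 500 bases upstream, 2 kb upstream and at least 50% of the region inside. With 12 or 6 clusters the median ratio was 1.95 or 1.52. Depth limits the regions without a peak in every library, which have no count in some.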
